A study of Ulva lactuca with 7 samples.

Results

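The 200 assembled genes with the steadiest transcript levels were described in the green seaweed Ulva lactuca, which lives between the tide lines, across drying and return to water. Genes were ranked by the coefficient of variation (CV, the SD divided by the mean) of their counts per 1000000 (CPM) over 7 libraries, and the 200 with the lowest CV were taken. They came from 3215 genes that met the filters, out of 90206 assembled genes. A gene met the filters if its transcript with the highest summed count had 500 or more counts in each library and a GC content of 35% or more. Since the ranking used all 7 libraries, low variation in these libraries is how the genes were chosen and not a result, and no test was made on it.

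In the resubmerged condition thalli, the flat blades of the alga, were dried for 24, 36 or 72 h and then spent 1 h in autoclaved seawater. In the desiccated condition they were kept for 24, 36 or 72 h at 20% moisture. The same 20% moisture is given for the resubmerged libraries. The control thalli are labelled as always submerged. The title of the control library begins like those of the 24 h libraries, and its treatment label was followed, so each value given for the control rests on that label. Each of these 7 conditions had 1 library of total RNA, so the spread between thalli of the same condition was not measured. The sources used here do not give how many thalli went into a library. No name or product comes with a transcript in the files, so transcripts are called by their assembly identifiers, and the label of the tissue was not checked against marker genes.

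Intertidal algae such as Ulva lose most of the free water of the blade at low tide and take it up again when the tide returns. Studies of gene activity over such a cycle often use RT-qPCR, which reads a gene of interest against reference transcripts whose share of the RNA is taken to stay the same. A reference transcript is useful only where that share holds in each condition compared, and references of several abundance levels let the signal of the target and that of the reference be of like size. CPM measures such a share of the counted RNA, not the amount of RNA in a cell. A change in RNA content per thallus cannot be seen in it.

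The libraries held 63782317 to 97270080 counts. The deposited FPKM values (fragments per kilobase of transcript, scaled to library size) imply totals of 23202937 to 37934762, lower than the counts. The cause was not tested, and whether a read was counted for more than 1 transcript was not examined. The 200 genes took 1.74 to 2.08% of the counts of a library. A large part of this came from 1 member, c68860_g1_i1, which alone had 6991 to 10778 CPM. The counting errors given below cover counting only, since reads are not independent molecules.

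The 3 genes at the top of the ranking had CVs under 7% across drying and rewetting, and their highest library was 1.19-fold, 1.20-fold and 1.22-fold above their lowest. Transcript c30784_g1_i4 (2513 nt, 57.6% GC) had 71.6, 76.4 and 71.2 CPM in the libraries resubmerged after 24, 36 and 72 h, 71.7, 64.9 and 71.3 CPM after 24, 36 and 72 h of desiccation, and 77.4 CPM in the control. Its mean was 72.1 ± 4.09 CPM (SD, n = 7 libraries of different conditions), a CV of 5.68%. The control was its highest library and 36 h of desiccation its lowest, and the resubmerged libraries overlapped the desiccated ones. Transcript c31262_g1_i2 (1334 nt, 55.2% GC) had 115, 121 and 125 CPM in the resubmerged libraries, 105, 109 and 123 CPM in the desiccated libraries, in the same order of periods, and 121 CPM in the control. Transcript c33020_g2_i5 (3727 nt, 58.5% GC) had 24.95, 25.8 and 29.2 CPM after resubmergence, 27.0, 24.8 and 24.1 CPM after desiccation and 27.0 CPM in the control. The CV was 6.55% for c31262_g1_i2 and 6.76% for c33020_g2_i5. Both were highest in the library resubmerged after 72 h, while the lowest library was the one desiccated for 24 h for c31262_g1_i2 and the one desiccated for 72 h for c33020_g2_i5.

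The next 7 genes had CVs of 7.44 to 9.72% and spanned 12.0 to 119 CPM on average. Transcript c31316_g1_i7 had 10.4, 12.2 and 11.4 CPM after resubmergence, 12.5, 12.2 and 12.5 CPM after desiccation and 13.2 CPM in the control. Transcript c33717_g1_i4 had 124, 114 and 114 CPM after resubmergence, 117, 115 and 109.6 CPM after desiccation and 137 CPM in the control. In both the control was the highest library, and c33717_g1_i4 was lowest in the library desiccated for 72 h. Transcript c31967_g1_i1 had 15.8, 16.3 and 17.9 CPM after resubmergence, 16.7, 13.8 and 15.7 CPM after desiccation and 16.6 CPM in the control. Transcript c33728_g1_i2 had 70.3, 62.7 and 64.2 CPM after resubmergence, 74.0, 68.9 and 79.3 CPM after desiccation and 75.01 CPM in the control. For c33728_g1_i2 the resubmerged library was by CPM below the desiccated one of its period each time, but the states overlapped across periods. By deposited FPKM the 24 h pair had the other order, at 127.9 resubmerged and 123.8 desiccated. Transcript c30813_g2_i6 had 64.0, 58.5 and 57.9 CPM after resubmergence, 66.9, 58.9 and 52.2 CPM after desiccation and 65.2 CPM in the control. Transcript c30046_g1_i2 had 67.2, 69.0 and 80.03 CPM after resubmergence, 75.7, 75.1 and 80.9 CPM after desiccation and 87.6 CPM in the control. In c30046_g1_i2 the resubmerged library was by CPM below the desiccated one of its period each time, and all 6 were below the control. By deposited FPKM the 72 h pair had the other order, at 163.0 resubmerged and 155.5 desiccated. Transcript c33230_g2_i8 had 67.5, 72.5 and 77.1 CPM after resubmergence, 58.9, 74.5 and 79.9 CPM after desiccation and 69.7 CPM in the control. Its library desiccated for 24 h stood below the other libraries.

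**Figure D1:**
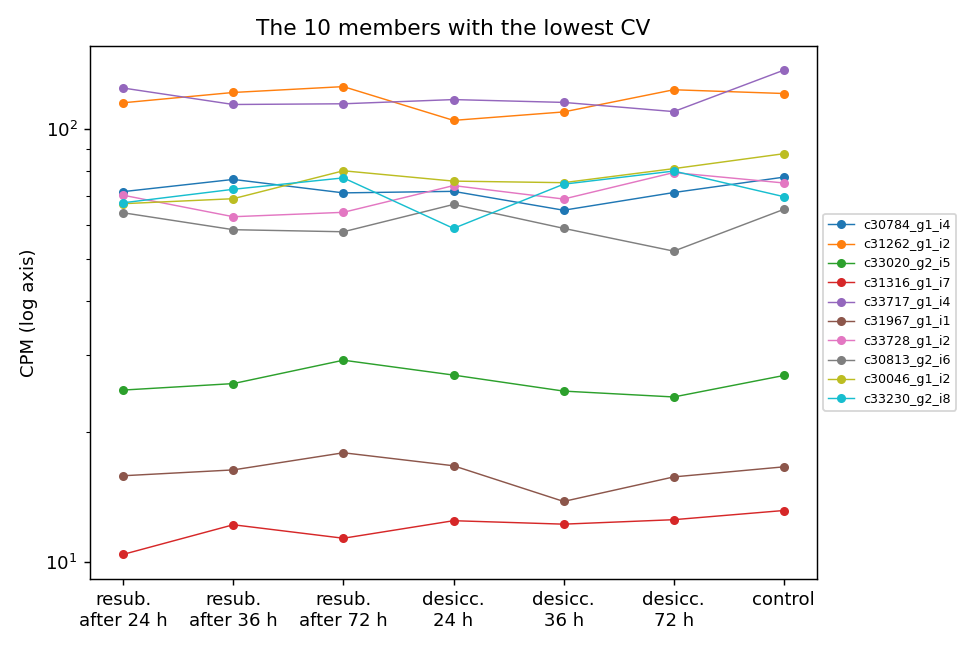
CPM (log axis) of the 10 genes with the lowest CV in each library, with the resubmerged libraries at the left, the desiccated ones in the middle and the control at the right. Lines join the values of 1 gene and no time course is meant. The 10 genes lie between 10.4 and 137 CPM, and each keeps its level within 1.36-fold.

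The geometric mean of these 10 genes, the form in which several reference genes are usually combined, was 49.4, 50.1 and 51.8 CPM in the libraries resubmerged after 24, 36 and 72 h, 50.5, 48.9 and 51.1 CPM in the libraries desiccated for these periods, and 54.3 CPM in the control. Its CV was 3.58%, and its highest library, the control, was 1.11-fold above its lowest. The geometric mean of all 200 genes had a CV of 4.91% and a 1.16-fold range, with the control again highest. Both follow from the choice of the genes and are given as a description.

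Variation within the list was graded rather than uniform. The CV was 10% or less in 13 genes, over 10 and up to 15% in 68, and over 15% in 119, with a median of 15.5%. The median CV of all 3215 genes was 35.7%. The ratio of the highest to the lowest library ran from 1.19 to 1.87 among the 200, with a median of 1.54. It was under 1.5 in 71 genes.

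No gap parted the list from the genes next to it. The last 3 genes inside, c33904_g1_i10, c30615_g1_i6 and c32425_g1_i3, had CVs of 18.09, 18.09 and 18.13%, and the first 3 outside, c28298_g1_i2, c28921_g1_i3 and c34633_g1_i5, had 18.17, 18.17 and 18.18%. For the last gene inside, c32425_g1_i3, the values were 20.7, 23.6 and 26.2 CPM after resubmergence, 18.7, 24.4 and 32.1 CPM after desiccation and 22.2 CPM in the control. For the first outside, c28298_g1_i2, they were 12.3, 10.6 and 14.4 CPM after resubmergence, 14.8, 16.6 and 13.6 CPM after desiccation and 18.5 CPM in the control. Genes near the border thus moved by 1.72-fold and 1.74-fold between their extreme libraries, and membership there says little about a single gene.

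Counting error was a small part of this variation. Counts of the size observed would by themselves give a CV of 0.122 to 3.87% in the 200 genes, with a median of 1.99%. The measured CV was 2.30 to 143 times this counting CV and was under 5 times it in 28 genes. For c30784_g1_i4, with 4547 to 6978 counts per library, the counting CV was 1.32% beside the measured 5.68%.

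**Figure D2:**
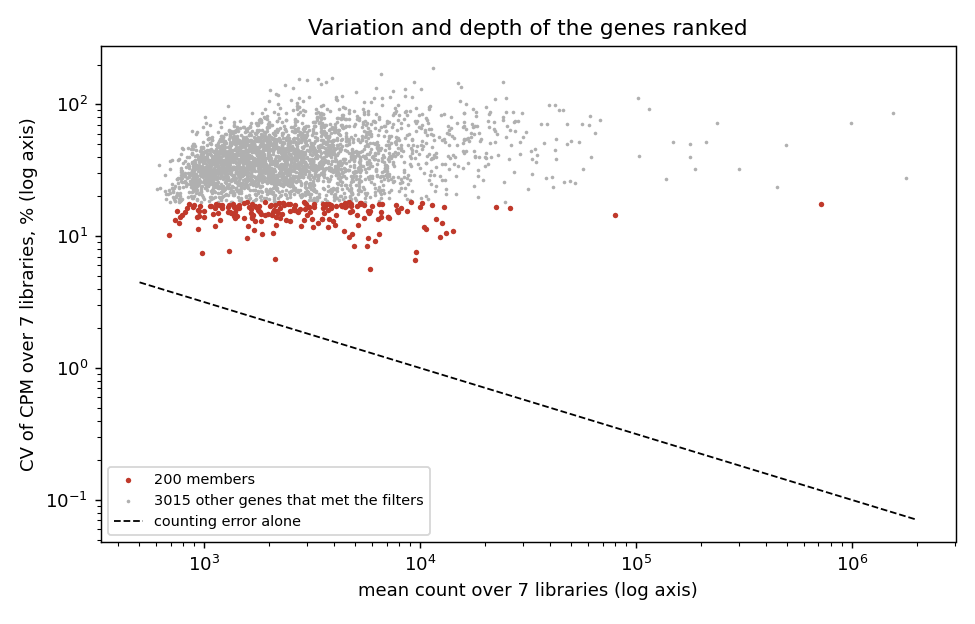
CV of CPM over the 7 libraries in percent against the mean count, both on log axes, for the 200 members and the other genes that met the filters. The dashed line gives the CV that counting error alone would cause at that count. The members, which fill the range up to 18.1% by construction, all lie above the line and extend from mean counts of 684 to 716787.

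The list covered a wide span of abundance. Mean FPKM, a level per transcript length, ran from 4.11 to 73321 with a median of 21.6, against a median of 19.5 among all genes that met the filters. Of the 200 genes, 28 were at 100 FPKM or more, 144 from 10 to under 100 FPKM and 28 under 10 FPKM.

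The 5 most abundant members per length were c68860_g1_i1, c33338_g1_i2, c27659_g1_i2, c27778_g1_i2 and c34617_g3_i3, with 73321 ± 12903, 1282 ± 219, 1149 ± 222, 618 ± 102 and 479.8 ± 93.6 FPKM (SD, n = 7 libraries of different conditions). Transcript c68860_g1_i1 is 325 nt long and the only transcript of its gene. It had 9287, 7625 and 7044 CPM after resubmergence, 9619, 10778 and 10046 CPM after desiccation and 6991 CPM in the control. By CPM all 3 desiccated libraries were above all 3 resubmerged ones, an order held by 10.7% of all genes that met the filters, and the control was lowest. Its CV was 17.5%. By deposited FPKM the states overlapped, with 79666 in the library resubmerged after 24 h and 75888 in the one desiccated for 24 h. Transcript c33338_g1_i2 (2120 nt) had 1037, 1051 and 1100.2 CPM after resubmergence, 769, 860.2 and 1197 CPM after desiccation and 963 CPM in the control. Its lowest library was the one desiccated for 24 h and its highest the one desiccated for 72 h. Transcripts c27659_g1_i2 and c27778_g1_i2, of 228 and 208 nt, were lowest in the library resubmerged after 24 h and highest in the one resubmerged after 72 h, with 73.3 and 115 CPM for c27659_g1_i2 and 37.4 and 55.7 CPM for c27778_g1_i2. Transcript c34617_g3_i3 was at 209 CPM after 24 h of desiccation, its lowest library, and at 345 CPM in the library resubmerged after 72 h, its highest.

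At the other end, the 5 members with the lowest counts were c28917_g2_i3, c31966_g1_i3, c29109_g1_i5, c31442_g1_i8 and c23744_g1_i1, with mean counts of 684 to 768. Transcript c28917_g2_i3 (5631 nt) had 8.40, 7.01 and 9.19 CPM after resubmergence, 7.75, 9.54 and 8.72 CPM after desiccation and 8.75 CPM in the control. Its CV was 10.2%, of which counting alone would give 3.87%. The other 4 had CVs of 12.6 to 15.6%, and 3 of these 4, c31966_g1_i3, c29109_g1_i5 and c31442_g1_i8, were highest in the control. These genes sit near the minimum of 500 counts, which they had to reach in every library.

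The remaining variation of the 200 genes was not spread evenly over the libraries. The control was the highest library for 62 of the 200 genes, and the control lay above the 6 other libraries in 23.6% of all genes that met the filters. The library resubmerged after 36 h was the lowest for 66 members, and 24.9% of all genes had it lowest. The median deviation from a gene's own mean, on the log2 CPM scale, was -0.05, -0.09 and 0.06 in the libraries resubmerged after 24, 36 and 72 h, -0.02, -0.02 and 0.04 in the libraries desiccated for these periods, and 0.12 in the control. The SD of these deviations over the members was 0.17 to 0.23 in each library, and it was 0.45 to 0.73 over all genes that met the filters. Members were chosen for small deviations in these same libraries, so their smaller SD follows from the rule and is a description.

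**Figure D3:**
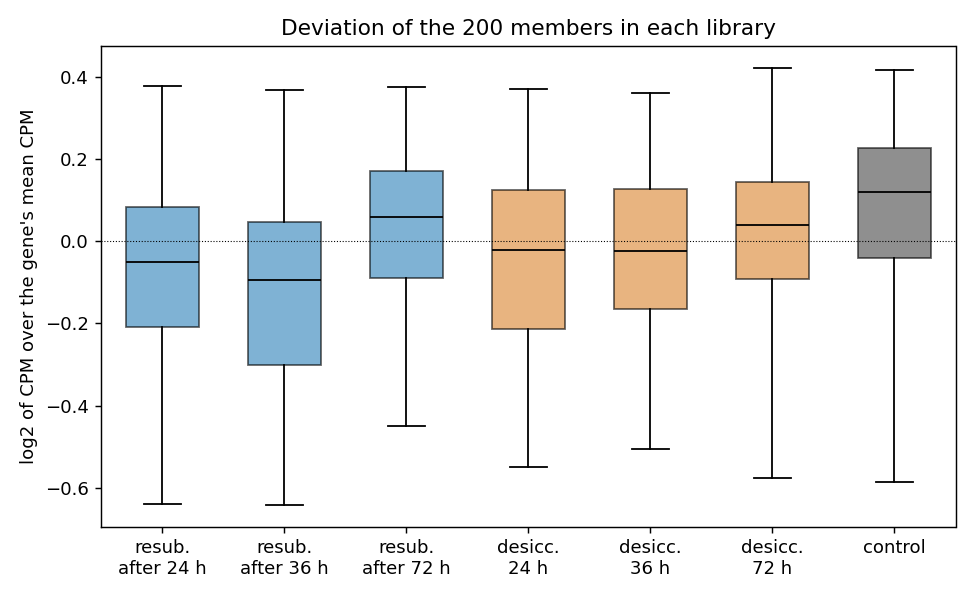
Log2 of the CPM in a library over the gene's mean CPM of the 7 libraries, for the 200 members. Boxes give the quartiles and the median, and whiskers reach the lowest and highest gene. Medians run from -0.09 in the library resubmerged after 36 h to 0.12 in the control, and single genes reach -0.64 and 0.42.

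Against the control, drying left most members within 0.32 log2 units by CPM, that is, no more than 25% above or 20% below. After 24, 36 and 72 h of desiccation 57, 67 and 57 of the 200 genes were farther than this from the control, beside 71.2, 70.2 and 68.6% of all genes that met the filters. The numbers more than 1.5-fold away were 10, 10 and 7, beside 53.6, 48.7 and 48.6% of all genes. The median log2 ratios to the control were -0.17, -0.13 and -0.10, and 141, 129 and 119 of the 200 genes were lower than in the control, beside 61.6, 55.9 and 51.1% of all genes. These 3 comparisons share the 1 control library, and the choice of the genes used all of them, so the counts are a description.

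After 1 h in seawater, 73, 94 and 41 of the 200 genes were more than 0.32 log2 units from the desiccated library of the same period of 24, 36 or 72 h. The shares over all genes that met the filters were 71.2, 77.9 and 49.5%. More than 1.5-fold away were 8, 23 and 2 members, beside 49.1, 59.9 and 23.5% of all genes. The 36 h pair thus had the most members past either limit and the 72 h pair the fewest, and all genes had the same order. The median log2 ratios of the members were -0.01, -0.10 and 0.02.

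Set against the control, 70, 85 and 62 members were more than 0.32 log2 units away in the libraries resubmerged after 24, 36 and 72 h, beside 75.1, 71.8 and 68.3% of all genes that met the filters. The medians were -0.18, -0.24 and -0.06 on the log2 scale. More than 1.5-fold away were 10, 23 and 7 members, beside 56.4, 52.0 and 44.9% of all genes. These comparisons share the control library with those of the desiccated libraries.

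An order by state was found by CPM in some members, as it was in some of all genes that met the filters. In 16 of the 200 genes (8%) all 3 resubmerged libraries were above all 3 desiccated ones, and this held in 15.9% of all genes that met the filters. In 27 members (13.5%) all 3 resubmerged libraries were below all 3 desiccated ones, which held in 10.7% of all genes. The most abundant member, c68860_g1_i1, is among these 27 by CPM, though its states overlapped by deposited FPKM. The control stood above the other 6 libraries in 62 members and below them in 9, and the share over all genes was 11.7% for the second pattern.

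The direction of these small shifts depended on how libraries were scaled. Trimmed-mean factors (TMM), which remove the average shift of most transcripts, moved the median log2 ratio of all genes that met the filters by 0.40 for 24 h of desiccation against the control and by 0.24 for 36 h. With TMM the members' medians against the control became 0.23, 0.11 and -0.15 after 24, 36 and 72 h of desiccation, so the sign turned at 24 and 36 h. The medians against the control in the libraries resubmerged after 24, 36 and 72 h became 0.06, -0.17 and -0.20 with TMM and -0.13, -0.29 and 0.06 with deposited FPKM, so the sign turned at 24 h under the first and at 72 h under the second. Relative to the median of all genes that met the filters, a difference no scaling changes, the members stood 0.07, -0.01 and -0.08 apart on the log2 scale after 24, 36 and 72 h. For resubmergence against desiccation of the same period these differences were -0.11, 0.05 and -0.05. With TMM the 16 and 27 members with resubmerged libraries all above or all below the desiccated ones became 4 and 33, beside 13.4 and 16.6% of all genes. The control was then highest in 10 members instead of 62, beside 16.2% of all genes.

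Single genes differed in how much they depended on the scaling. By 5 scalings (CPM, TMM, DESeq2 size factors, totals of 1 transcript per gene and deposited FPKM) the 5 genes with the lowest worst-case CV were c31262_g1_i2, c30046_g1_i2, c30784_g1_i4, c31967_g1_i1 and c33020_g2_i5, whose highest CVs were 10.7, 11.9, 12.6, 12.9 and 13.4%. All 5 are also among the 10 genes with the lowest CV of CPM. By contrast c30813_g2_i6, eighth by CPM with 8.47%, had 19.8% with TMM and left the list. Among the most abundant members, c68860_g1_i1 had 26.9% with TMM, while c33338_g1_i2 had 14.6% by CPM and 8.96% with TMM. The CV of 25 of the 200 members was over 25% with TMM, and 63 members had a lower CV with TMM than by CPM.

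Ranking all 3215 genes again under each scaling kept 100 of the 200 members with TMM and 108 with DESeq2 size factors. It kept 161 with totals of 1 transcript per gene and 164 with deposited FPKM. The 5 lists had 70 genes in common. Leaving out 1 library and ranking again on the other 6 kept 122 to 165 members. The lowest number came without the control, and 134 were kept without the library resubmerged after 36 h. In all 7 of these lists 86 members remained, and 56 genes remained under both the 5 scalings and the 7 lists. Of the 50 members with the lowest CV 37 were among these 56, and of the 50 with the highest CV none (0) was. The 56 had a median CV of 12.6% by CPM and a highest one of 15.3%.

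**Figure D4:**
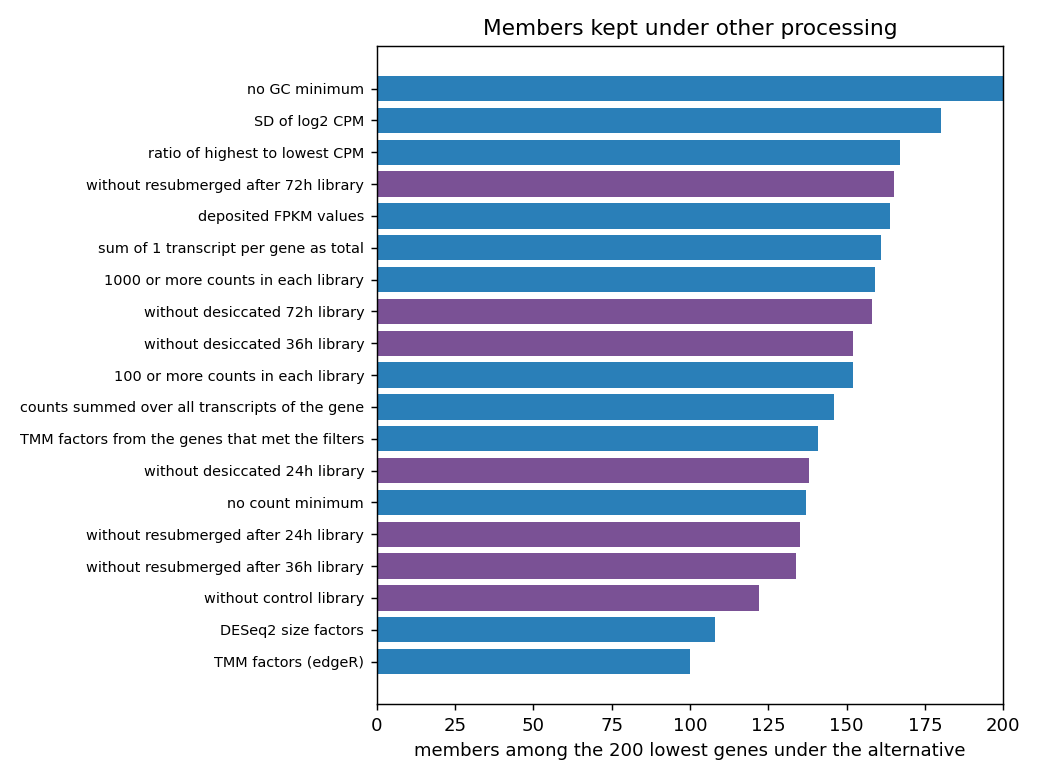
Number of the 200 members that were again among the 200 lowest genes when 1 choice of the processing was changed (blue) or 1 library left out (purple). The bars run from 100 with TMM factors to 200 without the GC minimum.

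A library that takes no part in the choice gives values that the ranking did not fix. For each library in turn, the transcript of each gene, the filters and the 200 lowest CVs were taken from the other 6 libraries, and the level in the seventh was set against the mean of the 6. Within 0.32 log2 units were 99, 72 and 143 of the 200 genes for the libraries resubmerged after 24, 36 and 72 h, 92, 122 and 141 for the libraries desiccated for these periods, and 88 for the control. In percent these are 49.5, 36.0 and 71.5%, 46.0, 61.0 and 70.5%, and 44.0%. The same shares over all genes that met the filters in the other 6 libraries were 34.2, 30.3 and 52.5%, 29.4, 40.1 and 49.8%, and 32.5%, lower in 7 of 7 libraries. On average 54.1 ± 13.8% of the chosen genes and 38.4 ± 9.42% of all genes were within 0.32 log2 units, and 80.9 ± 8.87% and 62.1 ± 10.2% within 1.5-fold (SD, n = 7 libraries). The 7 lists share most of their libraries, so these are not independent trials, and no test was made.

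The left-out libraries differed in how far the chosen genes departed. More than 2-fold away were 5, 12 and 1 of the 200 genes in the libraries resubmerged after 24, 36 and 72 h, 8, 3 and 3 in the libraries desiccated for these periods, and 11 in the control. Over all genes that met the filters the shares were 15.2, 23.5 and 5.84% after resubmergence, 24.1, 13.4 and 9.37% after desiccation and 23.0% in the control, so the same 3 libraries had the highest values in both sets. The chosen genes had a median log2 ratio of -0.38 with an SD of 0.49 over the genes in the library resubmerged after 36 h, where all genes had a median of -0.26. In the control the chosen genes had a median of 0.29 with an SD of 0.53, and all genes had a median of -0.02. These SDs are spreads between genes. With 1 library per condition, how far such a median shift varies between libraries of the same condition was not measured.

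**Figure D5:**
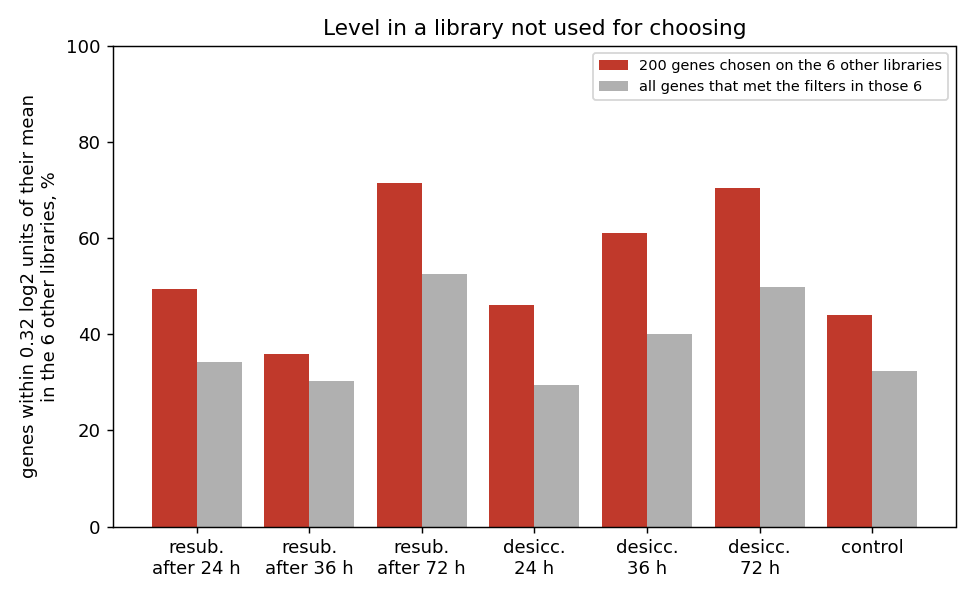
Percent of genes within 0.32 log2 units of their mean in the 6 other libraries, for 200 genes chosen on those 6 libraries (red) and for all genes that met the filters in them (grey). The red bar is higher in each of the 7 libraries, by the least in the library resubmerged after 36 h, with 36.0 against 30.3%.

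Members shared a middle GC content that the rule did not ask for. Of the 200 genes 165 (82.5%) had a GC content of 50 to under 60%, as did 60.2% of all genes that met the filters. Per 100 genes of a band, 1.41 were members under 50% GC, 7.17 from 50 to under 55%, 9.88 from 55 to under 60%, 3.23 from 60 to under 65% and 2.0 at 65% or more, where 6.22 was the average. The medians lay close together, at 56.5% in members and 57.5% in all genes. With TMM 138 and with DESeq2 size factors 143 of the 200 genes chosen were in the middle range, and 169 with deposited FPKM.

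GC content also went with the libraries. Over all genes that met the filters, the deviation from a gene's mean had slopes of 0.55, 0.61 and 0.22 log2 units per 10 points of GC in the libraries resubmerged after 24, 36 and 72 h, of -0.56, -0.57 and -0.12 in the libraries desiccated for these periods, and of -0.22 in the control. Among the 200 members the slopes were 0.23, 0.16 and 0.07 after resubmergence, -0.17, -0.19 and 0.01 after desiccation and -0.10 in the control. Except in the library desiccated for 72 h the sign was the same. Members were chosen for small deviations, so the size of their slopes is partly set by the rule. Pearson's r was 0.43, 0.25 and 0.14 in members after resubmergence, beside 0.46, 0.43 and 0.25 in all genes. It was -0.28, -0.36 and 0.03 in members after desiccation, beside -0.39, -0.51 and -0.12 in all genes, and -0.20 in members in the control, beside -0.15 in all genes. These genes share their libraries and differ in depth. The part of GC content in the choice of the members was not tested.

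Length, depth and the number of transcripts did not set the members far apart. The median length was 3625 nt in members and 3668 nt in all genes that met the filters. Per 100 genes of a band of length, from under 1000 nt to 8000 nt or more, 5.19 to 8.50 were members. By mean count these numbers were 4.64 to 9.33, with the highest from 4000 to under 8000 counts. The median was 7 transcripts per gene in members and in all genes alike. The differences were not tested.

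Most other transcripts of the member genes with counts in every library had CVs in the range of the members. Of the 200 genes, 195 had other transcripts, 1206 in all, and in 160 of these genes the second transcript by count had at least 80% of the count of the first. Whether such transcripts share reads was not examined. The matching shares over transcripts of all genes that met the filters are not given here. The counts for other transcripts therefore describe the member genes and do not set them apart. Other transcripts with 500 or more counts in every library numbered 894 in 181 genes, with a median CV of 16.3%, and 639 of them were at or under 18.1%. In 43 genes such a transcript varied more than 2-fold between its lowest and highest library. More than 4-fold was the range of 5 of these transcripts. With 500 or more counts asked for in at least 1 library only, 45 transcripts of 18 genes varied more than 4-fold, but this wider filter lets in transcripts through the libraries where they are high and so favours large ranges.

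Under the wider filter the transcripts with the largest range were in c29763_g1, c33904_g1 and c29269_g1. Each was under 500 counts in at least 1 library, and their values are given as a description. They passed the filter through the libraries where they were high and were then picked for their range. Which of their libraries were low or high is therefore not a result. Transcript c29763_g1_i5 had 83, 206 and 407 counts after resubmergence from 24, 36 and 72 h, 43, 305 and 748 counts after desiccation for these periods and 355 counts in the control, a range of 26.5-fold in CPM. The member transcript c29763_g1_i1 ranged 1.60-fold, with 7.83, 8.15 and 12.1 CPM after resubmergence, 10.8, 12.5 and 10.6 CPM after desiccation and 11.7 CPM in the control. The low values of c29763_g1_i5 were those of both 24 h libraries, and the high one that of 72 h of desiccation. Transcript c33904_g1_i17 had 721, 1355 and 2106 counts after resubmergence, 247, 1471 and 2299 counts after desiccation and 1541 counts in the control, with the lowest values again in both 24 h libraries. Transcript c29269_g1_i3 had 318, 560 and 347 counts after resubmergence, 115, 122 and 137 counts after desiccation and 606 counts in the control. This transcript met the filter only through the library resubmerged after 36 h and the control. The member c29269_g1_i5 ranged 1.62-fold.

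Counts summed over all transcripts of a gene had CVs within the limit of the list for most genes. The CV of the sum was 6.31 to 39.6%, with a median of 15.6%, and was at or under 18.1% in 167 of the 200 genes. The highest was that of c29763_g1, whose sum was 18.0, 23.0 and 39.0 CPM after resubmergence, 22.0, 34.7 and 55.5 CPM after desiccation and 39.3 CPM in the control. The sum of c33904_g1 had a CV of 13.1%, lower than the 18.09% of its member transcript, and that of c29269_g1 had 20.9%. After c29763_g1 the highest CVs of a sum were those of c32596_g1 at 29.6% and c31603_g1 at 27.6%. The sums of c32596_g1 were 150 to 169 CPM in the 3 resubmerged libraries, 80.5 to 109 CPM in the 3 desiccated ones and 103 CPM in the control. Those of c31603_g1 were 24.0 to 29.4 CPM, 15.2 to 20.0 CPM and 14.0 CPM. These 2 genes were named after their values were seen. How many gene sums differ by state in this way was not examined, so the values are a description.

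The ratio of one gene to another needs no library total. Over the 19900 pairs of members, the SD of the log2 ratio across the 7 libraries had a median of 0.29, and 129 pairs were under 0.1. Both genes of a pair were chosen for low variation in these libraries, so low values follow in large part from the choice. They are a description, and no value for pairs of other genes is given. Averaged over its pairs with the other 199 members, a gene's value ran from 0.22 to 0.40. The 5 lowest were c30046_g1_i2, c34716_g1_i3, c31262_g1_i2, c33717_g1_i4 and c33020_g2_i5, at 0.22 to 0.23. The second of these, c34716_g1_i3 (12651 nt, 16th by CV), had 56.3, 48.9 and 63.3 CPM after resubmergence, 60.1, 60.2 and 62.6 CPM after desiccation and 69.0 CPM in the control. It was lowest in the library resubmerged after 36 h and highest in the control, as many members were. The other 4 are among the 10 genes with the lowest CV.

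The authors' deposited tables compare 1 library with 1. In them none (0) of the 200 members had an adjusted p under 0.05 in any of the 6 comparisons, and none had an unadjusted p under 0.05. These p-values come from the same libraries on which the members were chosen for small differences. The counts of 0 thus follow from the choice and are a description, not separate evidence of steadiness. Over all genes that met the filters the authors' deposited tables hold 0, 0.0933 and 0% with an adjusted p under 0.05 for desiccation of 24, 36 and 72 h against the control, and 0.0622, 0 and 0.280% for resubmergence against desiccation after these periods. At an unadjusted p under 0.05 the authors' deposited tables hold 2.67, 3.14 and 2.02% of all genes for desiccation and 2.83, 1.46 and 2.21% for resubmergence. The smallest p of a member in the authors' deposited tables was 0.357, in the 24 h comparison of resubmergence. The fold changes of the members in the authors' deposited tables, which use the authors' own size factors, had medians of 1.12, 1.09 and 0.925 for desiccation against the control after 24, 36 and 72 h and of 0.912, 0.864 and 0.939 for resubmergence. They reached from 0.494 to 2.04, so at 24 and 36 h of desiccation the authors' deposited tables place the members' median above the control and CPM places it below.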

How the data were processed

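RNA-seq libraries of 7 conditions of Ulva lactuca thalli, 1 each, were analysed. Cutadapt, Bowtie2 and DESeq are named, per the submitters' processing notes. The sources used here do not give their roles and versions, the assembler or the counting program. Per the file headers, the deposited expression table holds for each of 137594 transcripts a read count, an FPKM value, the length and the GC content in percent. Each deposited comparison table lists counts, a p-value, its adjusted form, the ratio of both sides as a fold change, and a signal, the count divided by a size factor. A comparison table that repeats a pair of libraries with the sides swapped was not used.

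The gene part of an identifier was taken as the assembled gene and the transcript with the highest summed count as its representative. CPM was the count divided by the column sum and multiplied by 1000000. The CV used the sample SD over 7 libraries. Library totals were 63782317 to 97270080 counts. The counting CV was the square root of the mean of 1 divided by the count, from the counts of each transcript. It takes each count as a separate read, and whether a read was counted for more than 1 transcript was not examined. Scaling factors came from edgeR 4.0.16 (TMM) and DESeq2 1.42.0 under R 4.3.3, from the 66046 transcripts whose mean count reached 10. Other steps used Python 3.11.15 with pandas 2.3.3. With 1 library per condition and genes chosen on all libraries, no test was made and no p-value was computed. The ranking code was checked on simulated counts with planted steady genes, which says nothing about the genes chosen here.

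The members, lists and comparisons were chosen with earlier results of these data known. Genes named are the 10 lowest in CV, the 5 highest in FPKM, the 5 lowest in count, the 3 on either side of the border, the 5 with the lowest worst-case CV over 5 scalings, the 3 with the most variable other transcript and the 5 with the lowest mean pairwise ratio SD. The genes c32596_g1 and c31603_g1 and the gene pairs among the closing observations were named after their values were seen. Alternatives were other scalings, deposited FPKM, gene sums, count minimums of 100, 1000 and none, no GC minimum, other measures of spread and leaving out each library. TMM factors from the 3215 genes alone were added after the data were seen.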

Additional observations from a re-analysis of the deposited data

Results flagged for a closer look

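The median log2 ratio of the 200 members between resubmerged and desiccated libraries of the same period had different signs in the 3 periods by CPM. It was -0.01 after 24 h, -0.10 after 36 h and 0.02 after 72 h. Each period has 1 library per state, and the difference between periods was not tested. With TMM scaling the medians were -0.17, -0.27 and -0.07, all below 0, and with deposited FPKM they were 0.11, -0.18 and 0.11.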

How the results depend on the processing

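With 1 library per condition, the limit of the list is that spread between thalli was not measured. The scaling of the libraries moved membership by more than 1.5 times, to 100 of 200 members kept with TMM and 108 with DESeq2 size factors. The cause was not tested. With the other scalings, filters, gene sums and measures of spread, and with TMM factors from the 3215 genes alone (141, added after the data were seen), 137 to 200 members were kept. Leaving out 1 library kept 122 to 165, with 122 without the control. The CV of the 200th gene, 18.1%, was 17.5% with TMM, 17.7% with DESeq2 size factors, 19.2% with totals of 1 transcript per gene, 19.0% with deposited FPKM, 17.2% with gene sums, 17.0% with a minimum of 100 counts, 19.4% with 1000 counts, 16.7% with no minimum and 17.0% with TMM factors from the 3215 genes. It was 16.0 to 18.3% without 1 library. The median CV of the members, 15.5%, was 17.6, 17.0, 16.6 and 16.2% under the 4 other scalings in this order and 15.6% for gene sums, and 14.5 to 15.7% without 1 library. Of 1800 ratios of members, 606 were past 0.32 log2 units and 100 past 1.5-fold, and other scalings gave 625 to 651 past 0.32 log2 units. The share within 0.32 log2 units in a left-out library, 54.1%, was 57.3, 57.4, 51.5 and 51.4% under the 4 other scalings, and 80.9% were within 1.5-fold. The median pairwise SD of 0.29 was 0.30 for gene sums and 0.28 to 0.29 without 1 library. No paired test was made, and the labels give no replicate numbers. Resubmerged and desiccated libraries share the drying period, and their ratios are given by period.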

Other observations

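Some pairs of members kept a nearly fixed ratio although each gene moved. The closest of the 19900 pairs was c30736_g1_i4 with c29746_g1_i3, which had count ratios of 0.609, 0.596 and 0.613 in the libraries resubmerged after 24, 36 and 72 h, 0.589, 0.571 and 0.587 in the libraries desiccated for these periods and 0.603 in the control. The SD of this log2 ratio was 0.036, while c30736_g1_i4 and c29746_g1_i3 had CVs of 16.6 and 17.7% by CPM. Next was c34495_g1_i2 with c29690_g2_i2, with ratios of 20.8 to 23.0 over the 7 libraries. These pairs were picked as the lowest of many, and whether the transcripts of a pair share reads was not examined.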
